A study of Mus musculus with 6 samples.

Results

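A set of 10 genes that encode secreted peptides and proteins, and whose transcripts are known to change in the hippocampus after seizures or sustained firing, were followed in hippocampal RNAseq of mice that overexpress ORAI1 in neurons. They are Bdnf, Penk, Pdyn, Tac1, Tac2, Adcyap1, Crh, Nptx2, Inhba and Vgf, 10 of the 54838 genes in the deposited count table, found by their symbol in the GENCODE M21 annotation of GRCm38. All 10 passed the filter on low counts, which left 19087 genes. The wild-type group was 3 females and the FVB/NJ-Tg(Orai1)Ibd group 3 females, all aged 7 months, and RNA from the hippocampus of each mouse gave 1 library. The transgene is a human ORAI1 cDNA in a mouse Thy-1.2 cassette, which drives expression in neurons, on the FVB/NJ background. The transgenic mice come from 1 line, so the line and the transgene cannot be told apart. The study describes seizure-like events in aged animals of this line, which were older than the mice sequenced here at 7 months. Whether the sequenced mice had such events is not stated. The question put to the 10 genes was whether the transgenic hippocampus, at this younger age, carried a changed level of transcripts that seizures are known to change.

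As background, a neuropeptide gene encodes a long precursor that is cut by convertases inside dense-core granules, and the released peptides act on receptors coupled to G proteins. Strong firing raises calcium in the cell and switches on immediate early transcription factors first, and many peptide and growth factor genes after them. In the hippocampus, dentate granule cells and interneurons are the main sources of these peptides, and several of the peptides restrain or favour further firing once released. ORAI1 is the pore of a calcium channel at the cell surface that opens when calcium stores in the endoplasmic reticulum are empty.

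The opioid and tachykinin members share short peptide cores, and these are shown because the counts measure precursor transcripts that differ in the peptides they hold. The capitals mark the 15 bases of the core and the lower case letters the 6 bases on each side, read 5′ to 3′ on the coding strand of GENCODE M21 transcripts of GRCm38.
Penk, Met-enkephalin core, copy 1: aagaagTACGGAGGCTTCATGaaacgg
Penk, Leu-enkephalin core: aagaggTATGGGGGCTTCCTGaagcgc
Penk, Met-enkephalin core, last copy: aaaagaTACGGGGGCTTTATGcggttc
Pdyn, Leu-enkephalin core, copy 2: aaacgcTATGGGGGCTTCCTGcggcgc
Tac1, tachykinin ending, copy 1: cagcagTTCTTTGGATTAATGggcaag
Tac1, tachykinin ending, copy 2: gattccTTTGTTGGACTAATGggcaaa
Tac2, tachykinin ending: gacttcTTTGTGGGACTTATGggcaag
The longest open reading frame of Penk held 6 Met-enkephalin cores and 1 Leu-enkephalin core, and that of Pdyn held 3 Leu-enkephalin cores. All 10 opioid cores followed codons for a pair of basic residues, the usual cutting site of the convertases, while the 3 tachykinin endings stood before a glycine codon.

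The label of the transgenic group was borne out by the targeted gene. Orai1 stood at 7.16 to 8.08 CPM (the gene's counts relative to the TMM-scaled library total) in the wild-type and at 313 to 331 CPM in the transgenic libraries, a 42.9-fold difference, in a count that may hold reads of the human cDNA. Libraries held 37414241 to 52497799 counts. Of the 19087 genes tested, 591 were higher and 764 lower in the transgenic mice at an adjusted p under 0.05 by edgeR's quasi-likelihood test, 7.10% in all, and the median log2 fold change over all genes was −0.01. Hippocampal markers, of subfields or broader (Neurod2, Neurod6 and Zbtb20), summed to 1195 to 1309 CPM over the 6 libraries. Single genes could vary more than this sum, as C1ql2 ran from 24.7 to 69.6 CPM. Of the 10 markers 1, Neurod2, was higher in the transgenic mice (log2 fold change 0.32, edgeR adjusted p = 0.0239). Markers of GABAergic interneurons, cells that make several of these peptides, summed to 596 to 745 CPM in wild-type and to 522 to 593 CPM in transgenic libraries. Of these 7 genes Gad2 was lower (log2 fold change −0.52, adjusted p = 0.0272), and 4 had an unadjusted p under 0.05, as had 27.8% of all genes tested. Estimates were below 0 for 4 of the 7 and above 0 for 3, Pvalb at 0.09, Lhx6 at 0.02 and Htr3a at 0.18. With each library's GC trend removed Neurod2 stood at 0.22 (adjusted p = 0.0677) and Gad2 at −0.41 (adjusted p = 0.0824). Over the 6 fits that left out 1 mouse each, estimates ran from 0.27 to 0.38 for Neurod2 and from −0.60 to −0.43 for Gad2, and each passed the threshold in 2, the fit without wild-type mouse 2 not among them. The part of these cells in the members' values was not tested. Markers of the choroid plexus, the epithelium of the ventricles, were lower in the transgenic mice for 10 of 10 genes, with sums of 354 to 468 CPM in wild-type and 63.2 to 92.5 CPM in transgenic libraries. The library of wild-type mouse 2 stood apart, with 39 genes at more than 2 times the level of every other library, against 1 to 15 such genes in the others, and the member results that rest on it are given with and without it.

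None of the 10 genes passed the threshold of edgeR's test between genotypes. The count was 0 of 10 at an adjusted p under 0.05, 0 of 10 at an unadjusted p under 0.05 (27.8% of all genes tested), and 0 of 10 with DESeq2 and with limma-voom. The ranges of the 2 genotypes overlapped for all 10, whereas the genotypes did not overlap for 34.9% of all genes tested. Of the 10 estimates, 9 were below 0, as were 9871 of the 19087 genes tested, and without wild-type mouse 2 the count was 6 of 10. With all 6 mice their median log2 fold change was −0.12, and the smallest adjusted p was 0.371, for Adcyap1. In bulk tissue, fewer cells of a type and less RNA per cell cannot be told apart.

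**Figure D1:**
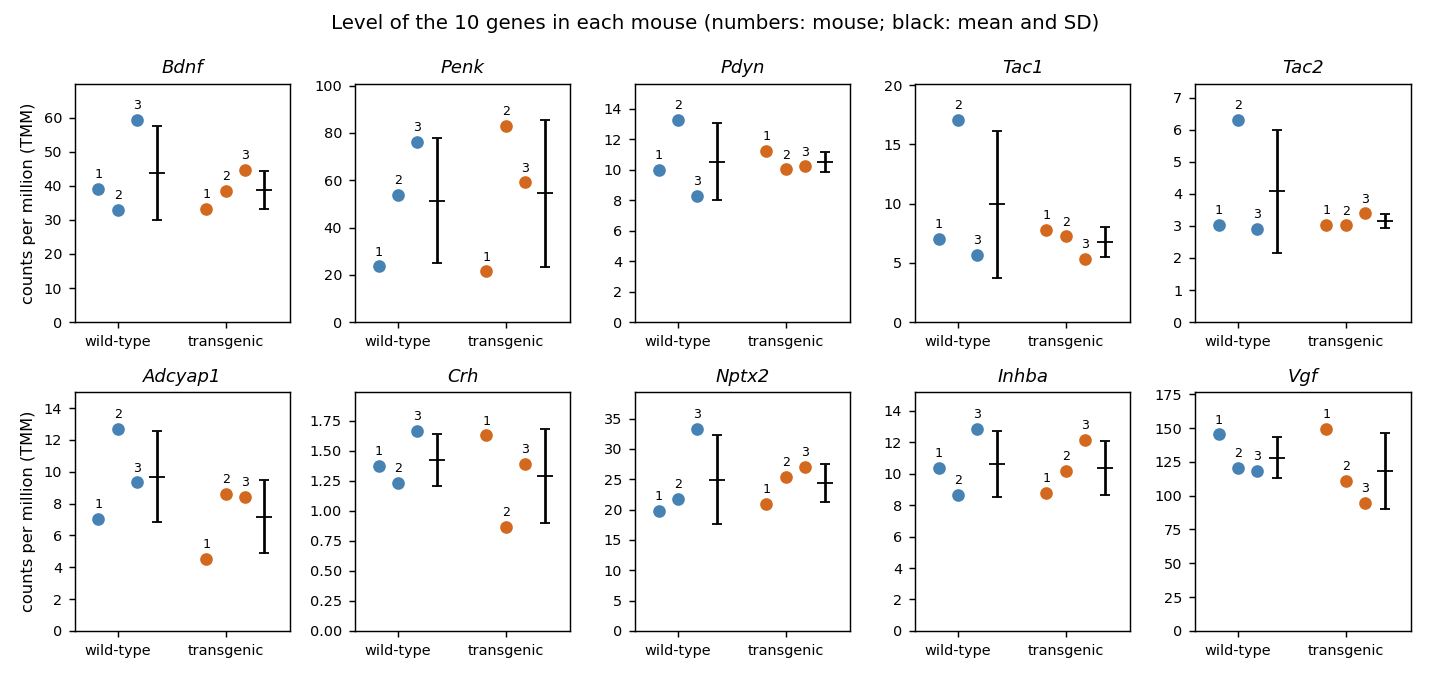
Level of each of the 10 genes in each mouse, in TMM-scaled CPM on axes that start at 0 (blue points, wild-type; orange points, transgenic; numbers are the mouse; black marks, mean and SD of 3 mice). The genotypes overlap in all 10 panels, and wild-type mouse 2 is the highest point for Pdyn, Tac1, Tac2 and Adcyap1.

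Levels between genes were compared per length, as FPKM, counts scaled by library total and by gene length. In wild-type mice Vgf, at 43.1 ± 4.85 FPKM (SD, n = 3), and Penk, at 31.4 ± 16.3 FPKM, stood highest, and their ranges overlapped. Nptx2 at 9.85 ± 2.92 FPKM and Bdnf at 7.05 ± 2.24 FPKM followed, overlapping each other and lying below the lowest Penk value of 14.4 FPKM. Pdyn at 3.64, Tac2 at 2.96, Tac1 at 2.92, Adcyap1 at 2.57 and Inhba at 1.67 FPKM formed a run in which each range overlapped the next. Without wild-type mouse 2 the wild-type means were 2.15 for Tac2, 1.87 for Tac1 and 2.16 for Adcyap1, so that Adcyap1 came before both, and the order of these 3 genes rests on that mouse. Crh, at 1.08 ± 0.169 FPKM, lay below all of them without overlap with Inhba, its neighbour in the order. In transgenic mice the order of the 10 means was that of all 3 wild-type mice, from Vgf at 39.7 ± 9.26 FPKM to Crh at 0.978 ± 0.291 FPKM.

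**Figure D2:**
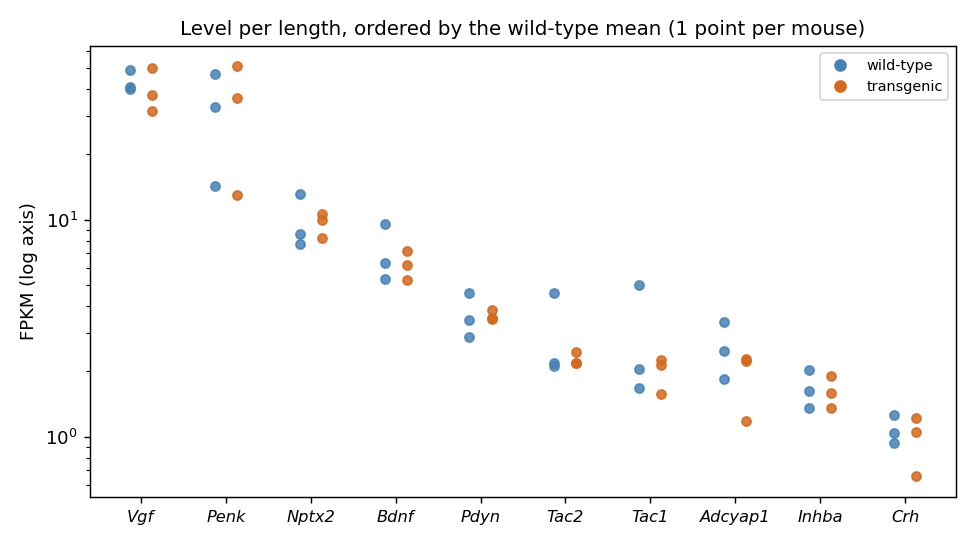
Level of the 10 genes per length (FPKM, log axis), 1 point per mouse (blue, wild-type; orange, transgenic), ordered by the wild-type mean. The order falls from Vgf, at 43.1 FPKM in wild-type mice, to Crh, at 1.08 FPKM, and among the wild-type points neighbours do not overlap after Penk, Bdnf and Inhba.

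Bdnf (ENSMUSG00000048482, chr2:109674700-109727007), the neurotrophin that acts on the receptor TrkB, was counted at 39.2, 32.9 and 59.3 CPM in wild-type mice and at 33.2, 38.5 and 44.6 CPM in transgenic mice. Wild-type mouse 3 was highest and the transgenic range lay within the wild-type range. The log2 fold change was −0.17 (SE 0.21, 95% interval −0.66 to 0.31, edgeR adjusted p = 0.636), so that a loss to 0.631 or a gain to 1.24 of the wild-type level lay inside the interval, and without wild-type mouse 3 the estimate was 0.11. The gene has several alternative first exons, some of which answer to calcium entry, and the counts sum over all of them. Of 7 start windows for Bdnf in RefSeq (GRCm38.p6, 250 bases before to 50 after each start), 1 held the 6-base core TGACGT of the cyclic AMP response element on either strand. It is printed on the plus strand as the one start of Bdnf with this core, in capitals as its reverse complement.
Bdnf, chr2:109692186-109692485: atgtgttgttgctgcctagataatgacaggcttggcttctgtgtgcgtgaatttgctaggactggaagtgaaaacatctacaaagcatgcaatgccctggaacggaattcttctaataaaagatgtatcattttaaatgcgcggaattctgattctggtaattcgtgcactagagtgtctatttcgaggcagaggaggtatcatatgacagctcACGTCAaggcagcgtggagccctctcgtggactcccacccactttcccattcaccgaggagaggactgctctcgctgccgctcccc
The core lay 36 bases before the start. Among 32851 windows of the same length 7.51% held it, against 3 of 14 windows of the 6 genes with an entry (Bdnf, Pdyn, Tac1, Tac2, Adcyap1 and Inhba), of which 2 were overlapping windows of Adcyap1. The full element TGACGTCA, which contains the core, was in 1.79% of all windows and in 0 of the 14. The AP-1 site TGANTCA was in 7.81% of all windows and in 1 of the 14, counting both strands each time.

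Vgf (ENSMUSG00000037428, chr5:137026392-137033351), whose precursor yields peptides stored in dense-core granules and which is induced by neurotrophins, was counted at 145, 121 and 118 CPM in wild-type and at 149, 111 and 94.4 CPM in transgenic mice. Mouse 1 was highest in both genotypes and the ranges overlapped. Its log2 fold change was −0.12 (SE 0.16, interval −0.49 to 0.26, edgeR adjusted p = 0.689). With the GC trend removed it stood at −0.31 (adjusted p = 0.263), and its transcript, at 64.8% GC, was the richest in GC of the 10. Inhba (ENSMUSG00000041324, chr13:16011851-16031621) encodes the subunit of activin A, a factor of the TGF-beta family. It was counted at 10.4, 8.65 and 12.9 CPM in wild-type and at 8.77, 10.2 and 12.2 CPM in transgenic mice, and its log2 fold change was −0.04 (interval −0.43 to 0.36, adjusted p = 0.915). Nptx2 (ENSMUSG00000059991, chr5:144545902-144557478) encodes a pentraxin that gathers AMPA receptors at synapses onto interneurons. Its values were 19.8, 21.8 and 33.3 CPM in wild-type and 20.97, 25.3 and 27.0 CPM in transgenic mice (log2 fold change −0.03, interval −0.48 to 0.43, adjusted p = 0.946). For Bdnf, Inhba and Nptx2 mouse 3 was the highest of its genotype in both groups. Without wild-type mouse 3 the estimate turned to 0.12 for Inhba and to 0.24 for Nptx2.

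Penk (ENSMUSG00000045573, chr4:4133531-4138819), the enkephalin precursor, varied most from mouse to mouse. It was counted at 23.5, 54.0 and 76.2 CPM in wild-type and at 21.4, 82.9 and 59.1 CPM in transgenic mice. Mouse 1 of each genotype was low, the other 4 mice were high, and the 2 genotypes covered nearly the same range. The highest wild-type mouse had 3.24 times the level of the lowest, and the highest transgenic mouse 3.87 times. The log2 fold change was 0.09 with an SE of 0.53, and its interval, −1.14 to 1.32, held folds from 0.453 to 2.498 (edgeR adjusted p = 0.933). A genotype difference of 2-fold in either direction thus lay inside the interval of this fit of 6 mice.

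Pdyn (ENSMUSG00000027400, chr2:129686565-129699844), the dynorphin precursor of dentate granule cells, stood at 9.99, 13.2 and 8.27 CPM in wild-type and at 11.2, 10.01 and 10.2 CPM in transgenic mice. The 3 transgenic values lay inside the wild-type range. With a log2 fold change of −0.0037 (SE 0.16, interval −0.38 to 0.38, edgeR adjusted p = 0.992), a change beyond 1.30-fold up or 0.767-fold down lay outside the interval. Without wild-type mouse 2, the highest of the 6, the estimate turned to 0.21 (interval −0.08 to 0.50, adjusted p = 0.375), so that bound rests on this mouse.

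Tac1 (ENSMUSG00000061762, chr6:7554879-7565834), the precursor of substance P and neurokinin A, was counted at 7.03, 17.1 and 5.71 CPM in wild-type and at 7.76, 7.23 and 5.34 CPM in transgenic mice. Tac2 (ENSMUSG00000025400, chr10:127724478-127731768), the neurokinin B precursor, was counted at 3.02, 6.30 and 2.91 CPM and at 3.04, 3.01 and 3.39 CPM. In both genes wild-type mouse 2 stood above the 5 other mice, at 2.58 and 2.05 times their mean. The log2 fold change was −0.55 for Tac1 (SE 0.39, interval −1.46 to 0.37, edgeR adjusted p = 0.405) and −0.37 for Tac2 (SE 0.30, interval −1.07 to 0.32, adjusted p = 0.464). Without wild-type mouse 2 both turned in sign, to 0.11 for Tac1 (interval −0.35 to 0.56, adjusted p = 0.801) and 0.10 for Tac2 (interval −0.25 to 0.45, adjusted p = 0.743).

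Adcyap1 (ENSMUSG00000024256, chr17:93199017-93206537), which encodes PACAP, a peptide that raises cyclic AMP in its target cells, was counted at 7.01, 12.7 and 9.33 CPM in wild-type and at 4.52, 8.62 and 8.41 CPM in transgenic mice. Transgenic mouse 1 was lowest and wild-type mouse 2 highest. The log2 fold change was −0.43 (SE 0.29, interval −1.10 to 0.24, edgeR adjusted p = 0.371), and −0.17 without wild-type mouse 2. Crh (ENSMUSG00000049796, chr3:19693401-19695396), the stress peptide made in some hippocampal interneurons, had only 33 to 76 counts in a library. These were 1.38, 1.23 and 1.66 CPM in wild-type and 1.63, 0.865 and 1.39 CPM in transgenic mice (log2 fold change −0.13, SE 0.25, interval −0.72 to 0.46, adjusted p = 0.786).

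**Figure D3:**
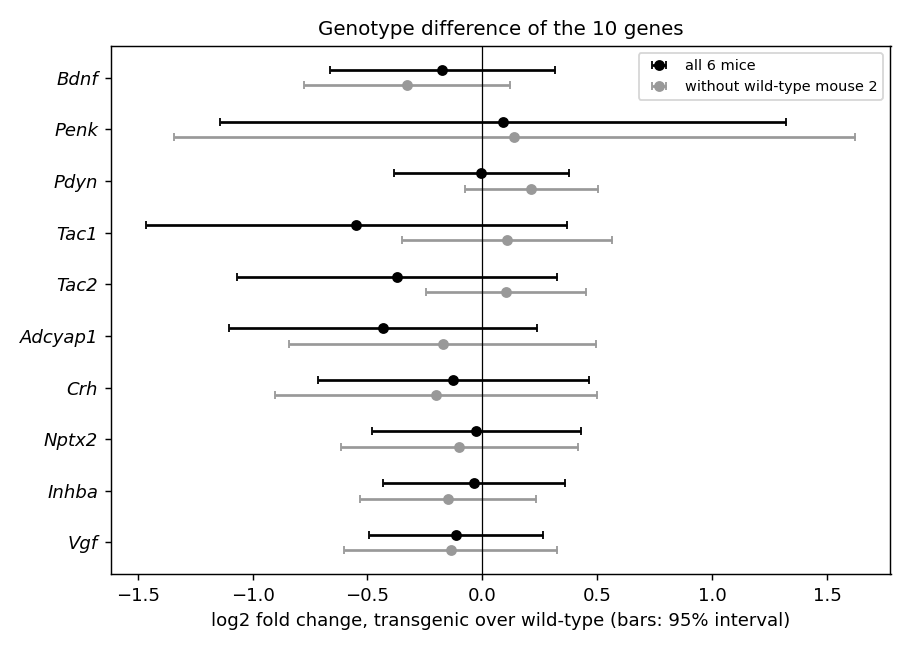
Log2 fold change of the 10 genes, transgenic over wild-type, with the 95% interval, from all 6 mice (black) and without wild-type mouse 2 (grey). All 20 intervals cross 0, and leaving that mouse out moves Tac1 from −0.55 to 0.11 and Tac2 from −0.37 to 0.10.

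The spread of the 10 genes among mice of 1 genotype rested in part on wild-type mouse 2. With all 6 mice their SD of log2 CPM within a genotype had a median of 0.35, against 0.12 over all genes tested. Compared with the 1479 to 2744 genes within 0.5 log2 units of the same mean level, each of the 10 had a larger SD than over 50% of its like, and 6 of 10 a larger SD than over 90% (Bdnf, Penk, Tac1, Adcyap1, Nptx2 and Vgf). Penk, with an SD of 0.95, lay above all 2686 genes of its level. Crh, at the lowest counts, stood above 76.6% of its like. Without wild-type mouse 2 the median SD was 0.30, against 0.12 over all genes, and Bdnf, Penk, Adcyap1, Nptx2 and Vgf, 5 of 10, were still above 90% of their like. Tac1 then stood above 81.0% (SD 0.26), Pdyn above 57.7% (SD 0.13) and Tac2 above only 7.53% (SD 0.08).

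Wild-type mouse 2 also carried more transcripts of the striatum and the medial habenula, but not of every neighbouring region. Markers of striatal projection neurons summed to 278 CPM in it and to 77.0 to 93.1 CPM in the 5 other mice, with 8 of 8 genes highest there and 6 of them at over 2 times every other mouse. Of the 8, Drd1 was in effect level with transgenic mouse 3, at 17.015 CPM against 17.013 CPM. Markers of the medial habenula, a nucleus beside the dorsal hippocampus, summed to 67.8 CPM against 28.3 to 38.9 CPM, with 6 of 6 highest there. None of the 8 or the 6 was at 0 in any library. Thalamus markers summed to 99.4 CPM in this mouse and to 73.6 to 106 CPM in the others, and hypothalamus markers to 6.35 CPM against 4.59 to 21.1 CPM. As background, Tac1, Pdyn and Penk are made in striatal projection neurons and Tac1 and Tac2 in the medial habenula. Pdyn in this mouse stood at 1.33 times and Adcyap1 at 1.68 times the mean of the 5 others. Penk stood at 1.03 times that mean, which covers mice from 21.4 to 82.9 CPM. Its 54.0 CPM in this mouse lay above mouse 1 of each genotype (23.5 CPM in wild-type, 21.4 CPM in transgenic). It lay below wild-type mouse 3 (76.2 CPM) and transgenic mice 2 and 3 (82.9 and 59.1 CPM). The 3 genes closest to Tac1 over the 6 libraries (root mean square distance of centred log2 CPM, among 11191 genes) were Pde10a at 0.16, Rasgrp2 at 0.16 and Syt9 at 0.18. Pde10a, a phosphodiesterase abundant in the striatum, was counted at 83.1, 156 and 63.7 CPM in wild-type and at 76.9, 63.9 and 61.7 CPM in transgenic mice. The part of these regions in the Tac1, Tac2, Pdyn, Adcyap1 and Penk values was not tested beyond leaving the mouse out. The genes closest to Adcyap1 were Coch at 0.16, Edn3 at 0.17 and Sned1 at 0.19.

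Penk followed another set of mice. For this gene the likeness was computed after its values were seen, and the nearest genes were Lyz2 at 0.25, Serping1 at 0.31 and Cd44 at 0.32. Lyz2, the lysozyme of macrophages, was counted at 7.18, 9.36 and 15.6 CPM in wild-type and at 4.42, 20.1 and 13.6 CPM in transgenic mice. Genes of astrocyte reactivity and of meningeal fibroblasts, lists also chosen after values were seen, are therefore given beside it. Gfap, the intermediate filament of astrocytes, stood at 323, 355 and 836 CPM in wild-type and at 386, 922 and 840 CPM in transgenic mice. C4b, a complement component, stood at 46.3, 59.4 and 132 CPM and at 45.9, 139 and 136 CPM. Wild-type mouse 3 and transgenic mice 2 and 3 were the 3 highest for Gfap, Vim, Serpina3n, C4b and Cd44, which summed to 1329 to 1449 CPM in them and to 572 to 660 CPM in the other mice. Penk was also highest in those 3 mice, but in wild-type mouse 2, where the 5 glial genes summed to 638 CPM, it reached 54.0 CPM, close to the 59.1 CPM of transgenic mouse 3. The 5 meningeal genes (Col1a1, Col1a2, Dcn, Lum and Ptgds) summed to 1066, 1351 and 1651 CPM in wild-type and to 603, 2384 and 1438 CPM in transgenic mice, with transgenic mouse 1 lowest and transgenic mouse 2 highest, as for Penk. The part of either cell type in the Penk values was not tested.

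**Figure D4:**
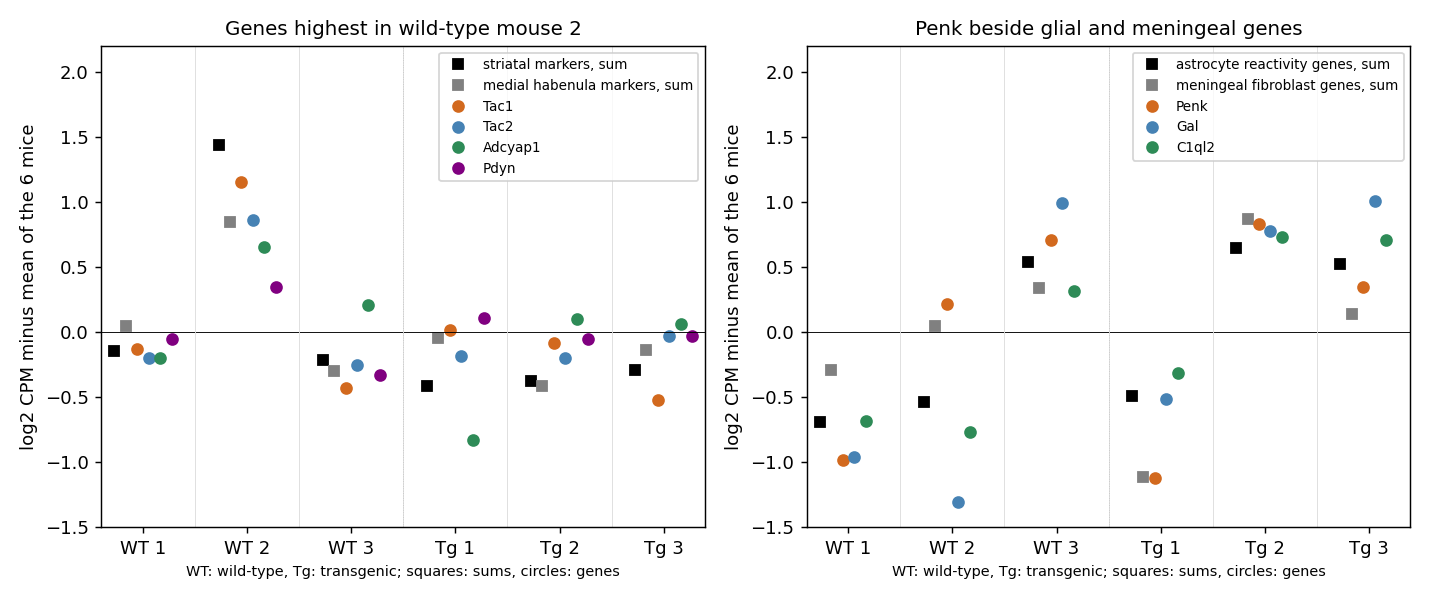
Log2 CPM of genes and of summed marker lists in each mouse, each centred on its mean over the 6 mice (circles, single genes; squares, sums). On the left wild-type mouse 2 stands highest for both marker sums and for Tac1, Tac2, Adcyap1 and Pdyn. On the right Penk, Gal, C1ql2 and the astrocyte reactivity genes stand highest in wild-type mouse 3 and transgenic mice 2 and 3.

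Among 22 receptors and binding partners of the members, edgeR's test called 1 higher and 2 lower, 3 of 22 beside 7.10% of all genes tested (median log2 fold change −0.02). Nptx1, the pentraxin that assembles with Nptx2, rose from 620, 617 and 668 CPM in wild-type to 758, 822 and 867 CPM in transgenic mice (log2 fold change 0.36, SE 0.07, edgeR adjusted p = 0.0279). No transgenic mouse reached down to the wild-type range of Nptx1, while Nptx2 overlapped, and the difference between the 2 genes was not tested. Ngfr, the p75 receptor that binds neurotrophins and their precursors, fell from 3.13, 3.34 and 3.72 to 2.10, 2.02 and 2.22 CPM (log2 fold change −0.68, adjusted p = 0.0312). Crhr2, a receptor for urocortins and Crh, fell from 8.85, 7.20 and 7.19 to 3.73, 4.22 and 5.15 CPM (log2 fold change −0.83, adjusted p = 0.0280). Crhr2 is also made in the choroid plexus, whose 10 markers fell, by a median of −2.65 on the log2 scale, and the part of that tissue in the Crhr2 value was not tested.

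The receptors for Bdnf (TrkB), dynorphin, PACAP and neurokinin B did not pass edgeR's threshold. DESeq2 called 6 of the 22 genes, Ntrk2 among them, beside 1055 higher and 1175 lower of the 19087 genes tested. Ntrk2, the gene for TrkB, was counted at 654, 632 and 634 CPM in wild-type and at 585, 567 and 556 CPM in transgenic mice (log2 fold change −0.17, SE 0.05, edgeR adjusted p = 0.0658). The genotypes did not overlap. Oprk1, the dynorphin receptor, had the lowest estimate of the list, −0.93 (SE 0.32, adjusted p = 0.117), with wild-type mouse 2 the highest of the 6 mice, the other wild-type mice at 2.43 and 2.14 CPM and the transgenic mice at 1.58 to 1.84 CPM. Without wild-type mouse 2 it was −0.43 (SE 0.18, adjusted p = 0.242). Adcyap1r1, the PACAP receptor, stood at 0.08 (SE 0.09, adjusted p = 0.609) and Tacr3, the neurokinin B receptor, at 0.17 (SE 0.17, adjusted p = 0.571).

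Of 15 genes for peptide processing and dense-core granules, edgeR's test called 2 higher and none lower, beside 7.10% of all genes tested. Limma-voom also called 2, beside 550 higher and 711 lower of the 19087 genes tested. DESeq2 called 3, beside 1055 higher and 1175 lower. The median log2 fold change by edgeR was −0.05. Pcsk1n, whose product inhibits the convertase encoded by Pcsk1, rose from 293, 295 and 279 CPM to 382, 344 and 358 CPM (log2 fold change 0.32, SE 0.05, edgeR adjusted p = 0.0243). Ptprn, a membrane protein of the granules, rose from 491, 491 and 508 CPM to 588, 571 and 558 CPM (log2 fold change 0.20, SE 0.05, adjusted p = 0.0444). Pcsk1 itself was counted at 36.0, 30.9 and 18.9 CPM in wild-type and at 19.8, 17.5 and 16.9 CPM in transgenic mice (log2 fold change −0.67, SE 0.21, adjusted p = 0.0942), with wild-type mouse 3 inside the transgenic range, and was the third gene called by DESeq2. With each library's GC trend removed, Ptprn stood at 0.097 (adjusted p = 0.266), Pcsk1n at 0.24 (adjusted p = 0.0686) and Nptx1 at 0.30 (adjusted p = 0.0664). In that fit Ngfr, at −0.79 (adjusted p = 0.0325), and Crhr2, at −0.91 (adjusted p = 0.0343), still passed. With the length trend removed the adjusted p was 0.0623 for Ptprn and 0.0590 for Pcsk1n. Over the 6 fits that left out 1 mouse each, Nptx1 stood between 0.33 and 0.41, Pcsk1n between 0.28 and 0.38, Ptprn between 0.18 and 0.24, Crhr2 between −0.94 and −0.71 and Ngfr between −0.73 and −0.61. Nptx1, Pcsk1n and Crhr2 passed the threshold in 2 of these fits and Ngfr and Ptprn in 0, and without wild-type mouse 2 none of the 5 passed, in a fit in which 94 of all genes did.

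None of 12 other neuropeptides and none of 8 other trophic factors passed the threshold by edgeR, with 1 and 2 genes at an unadjusted p under 0.05, and the count was 0 in both lists with DESeq2 and limma-voom. Of all genes tested 7.10% passed and 27.8% had an unadjusted p under 0.05. The median log2 fold change was 0.14 for the neuropeptides and −0.14 for the trophic factors. Ntf3, the trophic factor next to Bdnf in structure, was counted at 5.48, 5.92 and 3.22 CPM in wild-type and at 6.39, 3.38 and 3.69 CPM in transgenic mice. Npy, a peptide of interneurons, was counted at 17.1, 22.8 and 35.2 CPM and at 26.9, 31.6 and 23.8 CPM (log2 fold change 0.14, SE 0.24, adjusted p = 0.754). Gal, the galanin precursor, chosen after its values were seen, stood at 0.726, 0.569 and 2.80 CPM in wild-type and at 0.986, 2.41 and 2.83 CPM in transgenic mice. Its 3 high mice were those with high Gfap, as were those of the dentate granule cell marker C1ql2, at 26.2, 24.7 and 52.3 CPM and 33.8, 69.6 and 68.8 CPM.

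Among 18 immediate early genes none passed the threshold by edgeR or limma-voom and 1, Ptgs2, by DESeq2, which called 1055 higher and 1175 lower of all 19087 genes. Ptgs2 was lower in the transgenic mice (log2 fold change −0.44 by edgeR, adjusted p = 0.0674). By edgeR 2 of the 18 had an unadjusted p under 0.05, 1 higher and 1 lower, and the median log2 fold change was 0.15 with 15 of 18 estimates above 0. Over all genes 27.8% had such a p and 9216 of 19087 estimates were above 0. The median was 0.0065 without transgenic mouse 1 and 0.47 without wild-type mouse 1. Npas4, a transcription factor that acts on Bdnf, was counted at 10.6, 9.24 and 4.25 CPM in wild-type and at 13.4, 5.14 and 9.001 CPM in transgenic mice. Arc, chosen after its values were seen, was counted at 90.8, 57.7 and 49.2 CPM and at 133, 59.2 and 83.8 CPM. Mouse 1 was the highest of its genotype in both groups for 13 of the 18 genes, 72.2%, against 15.3% of all genes tested. Of the 10 secreted factors only Vgf had this order, and Penk, Adcyap1 and Nptx2 had mouse 1 lowest in both genotypes. The labels do not say what mice with the same number shared.

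**Figure D5:**
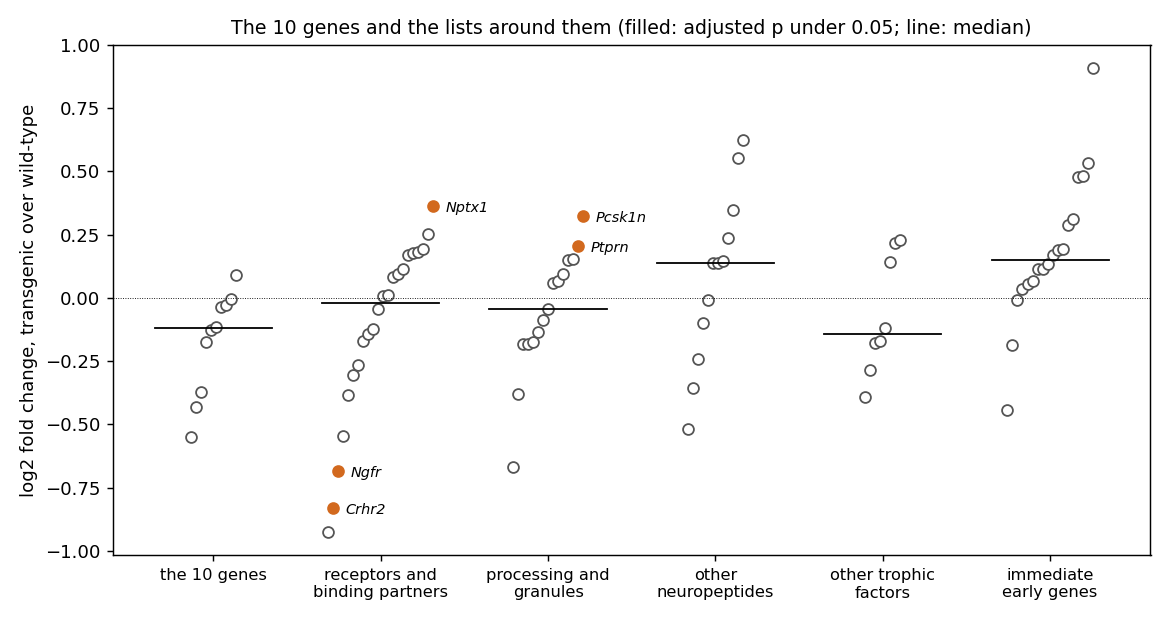
Log2 fold change, transgenic over wild-type, of the 10 genes and of the 5 lists around them, 1 point per gene (filled, adjusted p under 0.05; line, median of the list). Of the 10 genes none is filled, and Nptx1, Pcsk1n and Ptprn above 0 and Ngfr and Crhr2 below 0 are the 5 filled points.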

How the data were processed

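RNAseq counts of 6 hippocampal libraries, 3 per genotype, were used. Per the labels and the study's methods, the authors trimmed reads with Trimmomatic, aligned them to mm10 with STAR and counted them with featureCounts 1.5.0-p1 on the Ensembl 95 annotation of GRCm38. The deposited values are whole-number counts per gene, not normalized, counted with strand (setting 2) at a mapping quality of at least 3. No member overlaps another gene on its own strand.

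Genes were kept with edgeR's filterByExpr (minimum count 10), scaled by TMM and compared by edgeR's quasi-likelihood test over 6 libraries, with Benjamini-Hochberg adjustment over all genes tested and a threshold of 0.05. FPKM were computed from the counts, the deposited lengths and the library totals. Alternatives were other scalings and filters, DESeq2, limma-voom, GC and length offsets (loess, span 0.5), a replicate block and leaving out each mouse. Recomputing levels and spread without wild-type mouse 2 was chosen after seeing the data. The versions were edgeR 4.0.16, DESeq2 1.42.0 and limma 3.58.1 under R 4.3.3, and the fits were tested on simulated data. The study's own test, NOISeq, was not run. With 3 mice against 3 an exact permutation test cannot go below p = 0.1.

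The members and lists were chosen with earlier results of these data known. Genes named are the members, Orai1, list genes past the threshold, list genes tied to a member by role, and the 3 genes nearest to each of the 2 members with the smallest p; others are named as chosen after their values were seen. That the mice are separate animals comes from the study's methods.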

Additional observations from a re-analysis of the deposited data

How the results depend on the processing

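None of the 10 genes passed the threshold under any of 18 alternatives. The smallest adjusted p was 0.0555, for Vgf with GC offsets and the replicate block. Adcyap1 had an unadjusted p under 0.05 in 3 of the 18 and Vgf in 2, and no other member in any. Adcyap1 alone kept its sign throughout, and the cause of the other turns was not tested. Pdyn, at −0.0037, stood at 0.0047 with DESeq2's size factors, 0.0067 without a filter, 0.0094 with at least 10 counts in every library, 0.0047 with DESeq2's test, 0.022 with limma-voom and 0.019 with the replicate block. Nptx2 stood at 0.013 with limma-voom. Bdnf stood at 0.011 and Inhba at 0.091 with GC offsets, and with the replicate block added at 0.048 and 0.098, with Penk at −0.011. Length offsets put Inhba at 0.017, and with the replicate block at 0.022, with Penk at −0.010. Over the fits without 1 mouse each, log2 fold changes ran from −0.33 to 0.11 for Bdnf, −0.33 to 0.50 for Penk, −0.14 to 0.21 for Pdyn, −0.81 to 0.11 for Tac1, −0.55 to 0.10 for Tac2, −0.33 to 0.12 for Crh, −0.16 to 0.24 for Nptx2, −0.15 to 0.12 for Inhba and −0.32 to 0.046 for Vgf.

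Over all genes, 591 higher and 764 lower became 1055 and 1175 with DESeq2, 263 and 475 with the replicate block, 154 and 246 with GC offsets, 150 and 314 with GC offsets and the block, 240 and 355 with length offsets and the block, and 394 and 376 with length offsets. With 1 mouse fewer they ran from 11 to 466 higher and 66 to 683 lower. The fewest came without wild-type mouse 1 (11 and 66), wild-type mouse 2 (13 and 81), transgenic mouse 3 (19 and 89) and transgenic mouse 2 (62 and 130). Without wild-type mouse 3 they were 396 and 635, and without transgenic mouse 1 they were 466 and 683. These fits all held the same number of mice, and the cause of the differences among them was not tested. Same-numbered mice correlated at 0.40, −0.36 and 0.39 in their deviations over 11191 genes, so the numbers were not taken to pair them. The block changed no call of the 10 genes, put Ngfr at an adjusted p of 0.0514 and Ptprn at 0.0816, with Vgf at −0.32 when GC offsets were added, and put Adcyap1 at an adjusted p of 0.0846. The median of the processing genes stood at 0.0016 with GC offsets, 0.0037 with the block added, −0.0092 with length offsets and −0.0052 with the block added, and ran from −0.044 to 0.042 without 1 mouse. That of the trophic factors stood at −0.070 with GC offsets and −0.075 with the block, and ran from −0.15 to −0.00074. That of the other neuropeptides stood at 0.055 with length offsets and ran from 0.058 to 0.24. That of the immediate early genes ran from 0.0065 to 0.47, highest without wild-type mouse 1. The median of the receptors and binding partners stood at −0.061 with GC offsets and −0.057 with the block added. It was 0.0092 with length offsets and 0.0057 with the block added, and ran from −0.061 to −0.0027 without 1 mouse. Without wild-type mouse 2, a choice made after seeing the data, 7 of the 10 genes kept their place in the wild-type order of levels. Log2 fold changes followed transcript GC content across 19079 genes (Spearman's rho 0.39), and the members' GC ran from 40.5% to 64.8%. Counting error is largest for Crh, at 33 to 76 counts, and 3 mice per genotype limit every interval.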
